A study of Mus musculus with 8 samples.

Results

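The expression of 10 genes of the extracellular matrix was examined in mouse lung. These genes were Postn, Tnc, Sparc, Thbs1, Fn1, Eln, Fbn1, Ltbp2, Lox and Loxl2, and they were found by their Entrez identifiers among the 23469 genes of the count table. All 10 were present once, and all 10 passed the filter on low counts in every comparison. The lungs came from wild type and DDAH1-transgenic mice on the C57BL/6 background. DDAH1 is an enzyme that degrades asymmetric dimethylarginine, an inhibitor of nitric oxide synthase. Mice of both genotypes received 50 µl of PBS in the airway, with or without 100 µg of house dust mite extract (HDM), 3 times a week over 3 weeks, and lungs were taken 24 hours after the last dose. The 4 groups were therefore PBS-treated wild type, HDM-treated wild type, PBS-treated DDAH1-transgenic and HDM-treated DDAH1-transgenic mice. RNA of 4 mice was pooled in each group, and each pool was sequenced as 2 libraries, which gave 8 libraries in all. The promoter of the transgene, the sex of the mice and their age are not given in the sources used here.

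Matricellular proteins such as tenascin C, periostin, SPARC and thrombospondin 1 are secreted into the matrix, where they act on cell adhesion and signalling more than as a scaffold. Fibronectin is the adhesive glycoprotein on which cells and other matrix fibres assemble. Elastic fibres give the lung its recoil, and they consist of an elastin core on microfibrils of fibrillin, with lysyl oxidases crosslinking elastin and collagen.

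Total counts lay between 5694928 and 11929374 per library, and the smallest was replicate 1 of the HDM-treated transgenic mice. The members had between 50 and 18415 counts in a library. Levels are given below as CPM, counts scaled to library size with a normalisation over all 8 libraries, and log2 fold changes come from a fit of the 4 libraries compared. Both libraries of a group come from the same pool, so that SE and adjusted p-values measure the spread between libraries of a pool and not between mice. An exact permutation test of 2 against 2 libraries cannot pass the threshold of 0.05, and each call rests on the spread that edgeR shares between genes. Ddah1 itself was at 47.6 and 34.3 CPM in PBS-treated wild type libraries and at 77.2 and 53.7 CPM in those of PBS-treated transgenic mice. After HDM it was at 43.1 and 44.8 CPM in wild type and at 34.7 and 33.4 CPM in transgenic libraries, the lower of the groups, so that "transgenic" below is the label of a library and was not shown by its Ddah1 count. Neither difference passed the test (adjusted p = 0.358 after PBS and 0.637 after HDM). Xist lay between 11.3 and 20.8 CPM in the PBS libraries and between 2051 and 3028 CPM in the HDM libraries of both genotypes. Ddx3y, a gene of the Y chromosome, lay between 58.7 and 68.9 CPM in PBS libraries and was down to 2 or 3 counts in the HDM libraries. HDM and sex therefore cannot be told apart in any comparison of HDM with PBS below, nor in the interaction of genotype and HDM. Both genotypes had the same sign of sex at each treatment.

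Tenascin C was the member with the largest change after HDM, and periostin, another matricellular gene, had nearly the same level with HDM and PBS in wild type mice. Their promoter windows from RefSeq (GRCm38.p6) are shown for this reason, as the 250 bases before a transcription start, 5′ to 3′ on the strand of the gene. Capitals mark the TATAAA and TATATAA matches. The Tnc window is chr4:64047016-64047265 on the minus strand, before the first of the starts listed for Tnc. The Postn window is chr3:54360857-54361106 on the plus strand, before the second of the starts listed for Postn.
Tnc: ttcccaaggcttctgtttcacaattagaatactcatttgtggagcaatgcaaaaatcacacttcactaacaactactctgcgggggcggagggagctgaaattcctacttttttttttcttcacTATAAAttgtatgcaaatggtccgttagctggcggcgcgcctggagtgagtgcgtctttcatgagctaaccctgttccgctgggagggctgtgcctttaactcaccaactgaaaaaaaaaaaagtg
Postn: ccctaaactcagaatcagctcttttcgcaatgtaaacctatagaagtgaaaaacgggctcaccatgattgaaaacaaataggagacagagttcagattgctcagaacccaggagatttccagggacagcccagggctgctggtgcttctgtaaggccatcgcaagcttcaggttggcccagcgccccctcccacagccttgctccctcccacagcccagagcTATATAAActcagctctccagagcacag
In the Postn window, the capitals hold TATATAA and TATAAA, which overlap and begin 28 and 26 bases before the start. The TATAAA of the Tnc window begins 126 bases before its start. Another start of Tnc, 64046936, had a TATATAA that begins 29 bases before it. On either strand, TATAAA was found in 12.4% and TATATAA in 3.04% of 32851 windows of the same length. RefSeq windows were matched for 5 of the 10 members (Postn, Tnc, Sparc, Fbn1 and Ltbp2), with 7 windows in all. TTCNNNNGAA, a letter pattern of STAT6 sites, was in none of the 7 and in 5.85% of all windows. TGANTCA, the pattern of AP-1, was likewise in none of the 7 and in 6.75% of all windows, and GGAATG, that of TEAD factors, in none and in 12.6%. CAGACA, a pattern of SMAD sites, was in the window before the second start of Tnc and in that of Sparc, and in 17.1% of all windows. These matches describe letters and not bound sites.

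The members differed widely in level. Per kilobase of transcript, Sparc was highest in PBS-treated wild type lung at 646 ± 10.9 CPM per kilobase (SD, n = 2), and Tnc was lowest at 1.54 ± 0.150. Between them came Postn (68.6 CPM per kilobase), Fn1 (56.6), Thbs1 (27.0), Loxl2 (26.7), Eln (18.4), Lox (15.7), Fbn1 (9.63) and Ltbp2 (8.45). In this order the libraries of Thbs1 and Loxl2 overlapped, as did those of Fbn1 and Ltbp2, and those of the other neighbours did not. After HDM the order changed near the top. Fn1 stood above Postn in wild type lung, at 132 against 67.7 CPM per kilobase, and also in transgenic lung, at 79.2 against 43.5. Eln moved from rank 7 in PBS-treated to rank 4 in HDM-treated transgenic lung, at 35.7 CPM per kilobase, where its libraries overlapped those of Postn. Since the reads were counted in coding regions, levels were also divided by coding length. On that scale Lox stood at 60.3 CPM per kilobase in PBS-treated wild type lung, at rank 5 instead of rank 7. Its libraries overlapped those of Loxl2 at 61.0. The libraries of Loxl2, at rank 4, in turn overlapped those of Fn1 at 63.3, and Thbs1 was at rank 6 with 44.9.

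**Figure D1:**
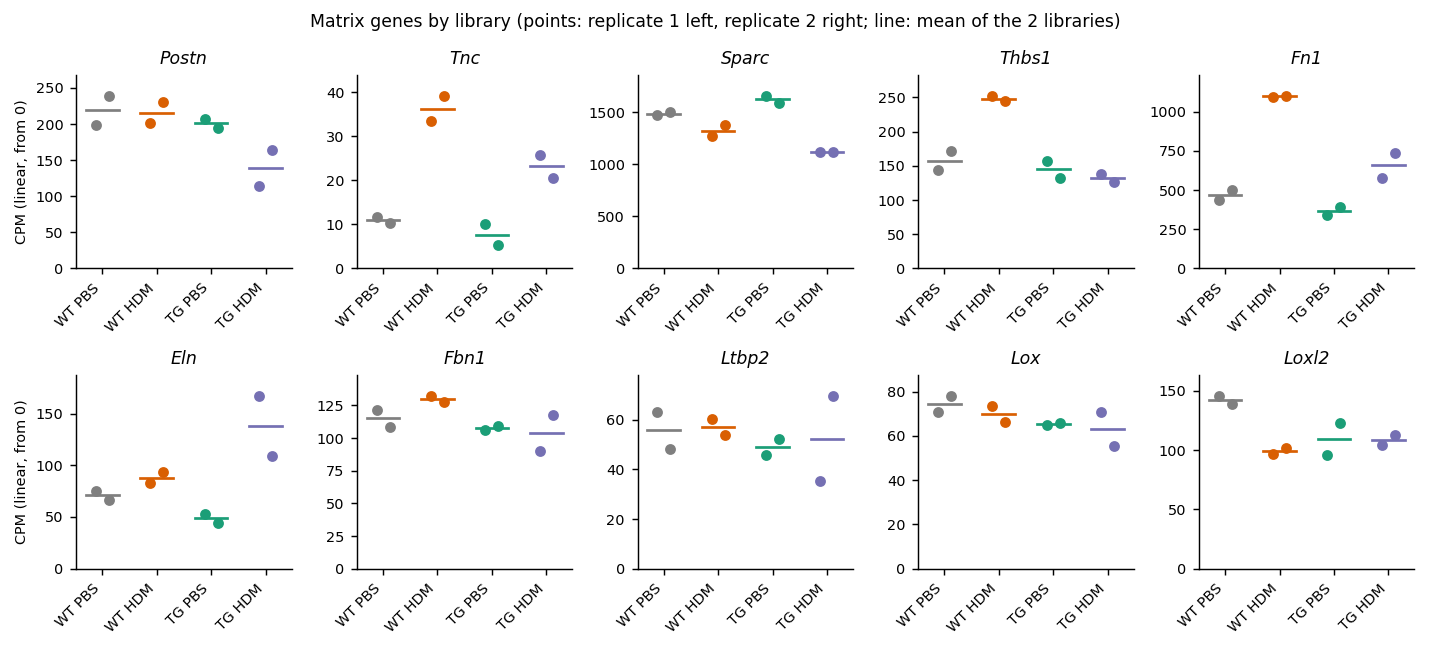
Level of each member in CPM (linear axis from 0) in the 8 libraries, with a point for each library and a line for the mean of the 2 libraries of a group. Fn1 and Tnc sit higher in both HDM groups than in both PBS groups, Thbs1 is high in HDM-treated wild type libraries (252 and 245 CPM), and Eln is highest in HDM-treated transgenic libraries (167 and 109 CPM).

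Of the 10 members, 3 rose after HDM in wild type lung (Tnc, Thbs1 and Fn1) and none fell, where 6.74% of 15123 genes were called, 4.44% higher and 2.3% lower. In transgenic lung, 3 rose (Tnc, Fn1 and Eln) and Sparc fell, where 13.8% of 15086 genes were called, 8.43% higher and 5.35% lower. Between genotypes, no member was called after PBS, where 0.657% of 14926 genes were called. Beside 1489 of those genes, 3 members had an unadjusted p under 0.05. DESeq2 called 0 members there as well. After HDM only Thbs1 was called, lower in transgenic lung, where 2.44% of 15191 genes were called, 1.84% higher and 0.599% lower. The groups of 7 members did not overlap between HDM and PBS in wild type, against 49.8% of all genes, and those of 5 did not overlap in transgenic lung, against 56.8%. Between genotypes the groups of 6 members did not overlap after PBS, against 40.4% of genes, and those of 8 after HDM, against 48.2%. The median log2 fold change of the members was 0.10 for HDM in wild type and -0.0020 for HDM in transgenic lung, beside 0.02 and 0.03 over all genes tested. For genotype it was -0.20 after PBS and -0.24 after HDM, beside 0.00 and 0.01 over all genes. Comparisons that hold the same group share its libraries, and their values are given side by side only. Calls over all genes also became far fewer for HDM in transgenic lung without either PBS-treated transgenic library. The same held for genotype after HDM without either HDM-treated wild type library, so that calls lost there are not particular to a gene. RNA of whole lung was measured, so that a change in the number of cells that make a transcript and a change of RNA per cell cannot be told apart.

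**Figure D2:**
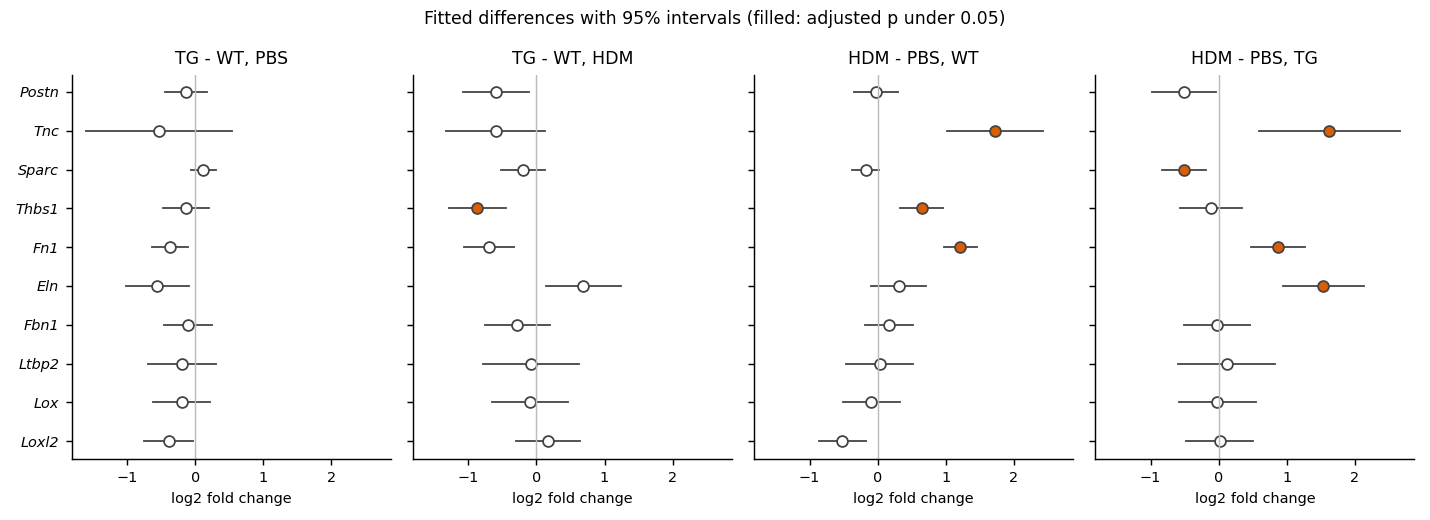
Log2 fold change of each member in the 4 comparisons, with its 95% interval, for transgenic minus wild type (PBS, then HDM) and for HDM minus PBS (wild type, then transgenic). Filled points passed an adjusted p of 0.05, and these are Thbs1 in the genotype comparison after HDM, Tnc, Thbs1 and Fn1 for HDM in wild type, and Tnc, Sparc, Fn1 and Eln for HDM in transgenic lung.

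Among the matricellular and adhesive genes, Tnc encodes tenascin C, a matrix protein that is scarce in most adult tissue and is made during development and repair. Tnc lies at chr4:63959785-64047015 on the minus strand of GRCm38. Its level was 11.7 and 10.2 CPM in PBS-treated wild type libraries, 33.4 and 39.1 CPM in HDM-treated wild type, 10.01 and 5.28 CPM in PBS-treated transgenic, and 25.8 and 20.6 CPM in HDM-treated transgenic libraries. Every HDM library was above every PBS library. Tnc rose after HDM by 1.72 on the log2 scale in wild type (SE 0.33, adjusted p = 0.00537, 3.29-fold) and by 1.63 in transgenic lung (SE 0.48, adjusted p = 0.0411, 3.09-fold). In transgenic lung the call was lost without either PBS library or without replicate 1 of the HDM libraries, at adjusted p between 0.101 and 0.277, while the log2 fold change stayed between 1.25 and 2.15. Both transgenic groups lay below the wild type group of the same treatment, with log2 fold changes of -0.53 after PBS (95% interval -1.60 to 0.54) and -0.60 after HDM (-1.33 to 0.13), and neither passed the test.

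Fn1, at chr1:71585473-71653280 on the minus strand, encodes fibronectin. It was at 438 and 503 CPM in PBS-treated wild type libraries, at 1095 and 1100 CPM after HDM, at 341 and 392 CPM in PBS-treated transgenic libraries, and at 579 and 738 CPM after HDM. All 4 groups were separate, in the order PBS-treated transgenic, PBS-treated wild type, HDM-treated transgenic and HDM-treated wild type. Fn1 rose after HDM by 1.22 on the log2 scale in wild type (SE 0.11, adjusted p = 8.57e-06, 2.33-fold) and by 0.87 in transgenic lung (SE 0.18, adjusted p = 0.00852, 1.82-fold). Without either PBS library of the transgenic mice the second call was lost, at adjusted p of 0.177 and 0.134. Transgenic lung had less Fn1 than wild type by point estimate, at -0.37 after PBS (SE 0.12, adjusted p = 0.250) and -0.70 after HDM (SE 0.17, adjusted p = 0.0523). The difference after HDM passed the test under 5 of the other settings, among them DESeq2 (adjusted p = 0.00387), and it was -0.45 with adjusted p = 0.191 with an offset for transcript length. Over all 9 of these settings the adjusted p lay between 0.00262 and 0.215.

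Thrombospondin 1, the product of Thbs1, is a matricellular glycoprotein of platelets, macrophages and stromal cells that can release TGF-beta from its latent form. Thbs1, at chr2:118111876-118127133 on the plus strand, was at 144 and 171 CPM in PBS-treated wild type libraries and at 252 and 245 CPM after HDM. In transgenic lung it was at 158 and 132 CPM with PBS and at 138 and 127 CPM with HDM. HDM-treated wild type libraries thus stood above the other 6, and the transgenic groups overlapped each other. It rose after HDM in wild type by 0.65 (SE 0.15, adjusted p = 0.0156, 1.57-fold), a call that was lost without replicate 1 of the PBS libraries, where the log2 fold change was 0.54 and the adjusted p 0.182. In transgenic lung the log2 fold change was -0.11 (95% interval -0.57 to 0.35), and it was 0.10 with the offset for transcript length. After HDM, Thbs1 was lower in transgenic than in wild type lung by -0.87 on the log2 scale (SE 0.19, adjusted p = 0.0382, 1.83-fold), and after PBS the difference was -0.13 (SE 0.16, adjusted p = 0.841). The call after HDM was lost with the offset for transcript length (-0.70, adjusted p = 0.130), with an offset for coding length (-0.68, adjusted p = 0.138), and without replicate 1 or replicate 2 of the HDM-treated wild type libraries (-0.86 and -0.88, adjusted p = 0.411 and 0.374). This call held with the offset for transcript length and the replicate number as a block. The sum of 5 platelet markers was 97.9 to 139 CPM in PBS libraries and 26.7 to 39.2 CPM in HDM libraries, and Ppbp made up most of it with PBS. After HDM 4 of the 5 estimates were negative in wild type and 3 in transgenic lung. In each, 1 was called lower, beside 2.3% and 5.35% of all genes. Mean Pf4 was higher after HDM, at 9.06 and 11.3 CPM in wild type and 6.84 and 13.6 CPM in transgenic lung. The part of platelets in the level of Thbs1 was not tested.

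Postn encodes periostin, a matricellular protein that fibroblasts and airway epithelial cells make in response to IL-13 and TGF-beta. It was at 199 and 239 CPM in PBS-treated wild type libraries and at 201 and 230 CPM after HDM, and these groups overlapped. In transgenic lung it was at 208 and 194 CPM with PBS and at 114 and 164 CPM with HDM. Both HDM-treated transgenic libraries were below the other 6, although they differed from each other by more than the libraries of any other group. The log2 fold change for HDM was -0.02 in wild type (95% interval -0.35 to 0.30). It was -0.51 in transgenic lung (SE 0.22, adjusted p = 0.146), and the genotype difference after HDM was -0.60 (SE 0.22, adjusted p = 0.200). With all libraries, an offset for transcript length and the replicate number as a block, edgeR called the HDM difference in transgenic lung (-0.61, adjusted p = 0.0479). Under every other setting with all libraries, neither difference passed the test. Without replicate 2 of the HDM-treated transgenic libraries they were -0.79 (adjusted p = 0.00939) and -0.86 (adjusted p = 0.00687), and without replicate 1 they were -0.29 (adjusted p = 0.440) and -0.38 (adjusted p = 0.473).

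SPARC, the product of Sparc, binds collagen and was the most abundant member. Sparc, at chr11:55394159-55420080 on the minus strand, was at 1469 and 1505 CPM in PBS-treated wild type and at 1270 and 1373 CPM in HDM-treated wild type libraries. In transgenic libraries it was at 1656 and 1593 CPM with PBS and at 1119 and 1121 CPM with HDM. No groups overlapped, and the transgenic libraries were both the highest and the lowest. Sparc fell by 0.51 on the log2 scale after HDM in transgenic lung (SE 0.15, adjusted p = 0.0389, 1.42-fold), and this call was lost without either PBS library of the transgenic mice (adjusted p = 0.268 and 0.273). In wild type lung the log2 fold change for HDM was -0.17 (SE 0.09, adjusted p = 0.330). It was the only member with a positive genotype difference after PBS, at 0.11 (95% interval -0.07 to 0.30).

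Among the elastic fibre genes, Eln encodes tropoelastin, the soluble subunit of elastin, which lung makes mainly while alveoli form. Eln, at chr5:134702595-134747368 on the minus strand, was at 74.7 and 66.8 CPM in PBS-treated wild type libraries and at 82.9 and 93.0 CPM after HDM. In transgenic lung it was at 53.2 and 43.8 CPM with PBS and at 167 and 109 CPM with HDM. The PBS-treated transgenic libraries were thus the lowest of the 8 and the HDM-treated transgenic libraries the highest, with no overlap between any of the groups. Eln rose after HDM in transgenic lung by 1.53 on the log2 scale (SE 0.27, adjusted p = 0.00340, 2.90-fold), and without either PBS library of the transgenic mice the call was lost (adjusted p = 0.0852 and 0.134). In wild type lung the change was 0.31 (SE 0.19, adjusted p = 0.409). The genotype difference was -0.56 after PBS (SE 0.22, adjusted p = 0.377) and 0.69 after HDM (SE 0.25, adjusted p = 0.197). The latter was 0.99 with adjusted p = 0.00254 without replicate 2 of the HDM-treated transgenic libraries and 0.33 with adjusted p = 0.664 without replicate 1.

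Fbn1 encodes fibrillin 1, which forms the microfibrils, and Ltbp2 encodes a member of the latent TGF-beta binding protein family that is found on them. Fbn1 ranged from 90.1 to 132 CPM over the 8 libraries and Ltbp2 from 35.2 to 69.5 CPM. No difference in either gene passed the test, and their log2 fold changes in the 4 comparisons lay between -0.28 and 0.17. The lowest and the highest level of Ltbp2 were both in HDM-treated transgenic libraries, at 35.2 CPM in replicate 1 and 69.5 CPM in replicate 2. The 95% interval of its genotype difference after HDM was correspondingly wide, at -0.79 to 0.62.

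Among the crosslinking enzymes, Lox encodes lysyl oxidase, which oxidises lysines of elastin and collagen, and Loxl2 encodes a relative of it. Loxl2 was at 145 and 139 CPM in PBS-treated wild type libraries, at 97.1 and 102 CPM after HDM, at 96.2 and 123 CPM in PBS-treated transgenic libraries, and at 104 and 113 CPM after HDM. PBS-treated wild type libraries stood above the other 6. The log2 fold change for HDM in wild type was -0.52 (SE 0.16, adjusted p = 0.0754), and DESeq2 called it (adjusted p = 0.0327). In transgenic lung it was 0.01 (95% interval -0.48 to 0.51), with a value of -0.02 under other size factors. The genotype difference after PBS was -0.39 (SE 0.17, adjusted p = 0.442). Lox ranged from 55.7 to 77.9 CPM over all libraries, and no comparison had a log2 fold change beyond -0.20.

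Whether the genotype difference changed between PBS and HDM was tested directly with all 8 libraries. Since Xist and Ddx3y split the same libraries, an interaction of genotype with HDM cannot be told apart from that of genotype with sex. No member was called in this interaction by edgeR, where 1.76% of 15868 genes were called. Beside 2327 of those genes, 3 members had an unadjusted p under 0.05. These were Eln at 1.20 on the log2 scale (SE 0.33, adjusted p = 0.0766), Thbs1 at -0.78 (SE 0.25, adjusted p = 0.130) and Sparc at -0.36 (SE 0.16, adjusted p = 0.308). DESeq2 called Eln (adjusted p = 0.0240) and Thbs1 (adjusted p = 0.0486), and edgeR without the filter on low counts called Eln (adjusted p = 0.0136). All 5 matricellular and adhesive genes had a negative estimate with a median of -0.37, beside 0.00 over all genes, while Eln, Ltbp2, Lox and Loxl2 had a positive one. Of these 5, Tnc turned positive with the length offset, at 0.11. Loxl2 was at 0.51 (95% interval -0.06 to 1.08) and Tnc at -0.12 (-1.29 to 1.05).

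Long genes were lower relative to short ones in the HDM-treated transgenic libraries, and the members are mostly long. Transcripts of 9 members were longer than the median of the genes tested, and those of 4 (Tnc, Fn1, Fbn1 and Ltbp2) were in the longest 10%. Over genes, Spearman's correlation of transcript length with the log2 fold change was 0.01 for genotype after PBS, -0.28 for genotype after HDM, -0.13 for HDM in wild type and -0.33 for HDM in transgenic lung. For the interaction of genotype and HDM this correlation was -0.24. These points share libraries and are no replicates. After HDM the median genotype difference was 0.64 in the shortest 10% of genes and -0.24 in the longest 10%. With an offset for transcript length in each library, HDM in transgenic lung still gave calls for Tnc (1.90), Fn1 (1.20), Eln (1.55) and Sparc (-0.74), and HDM in wild type for Tnc (1.79), Thbs1 (0.70) and Fn1 (1.29). Fbn1, the longest member, moved most with the offset, from -0.03 to 0.40 for HDM in transgenic lung and from -0.28 to 0.03 for genotype after HDM.

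**Figure D3:**
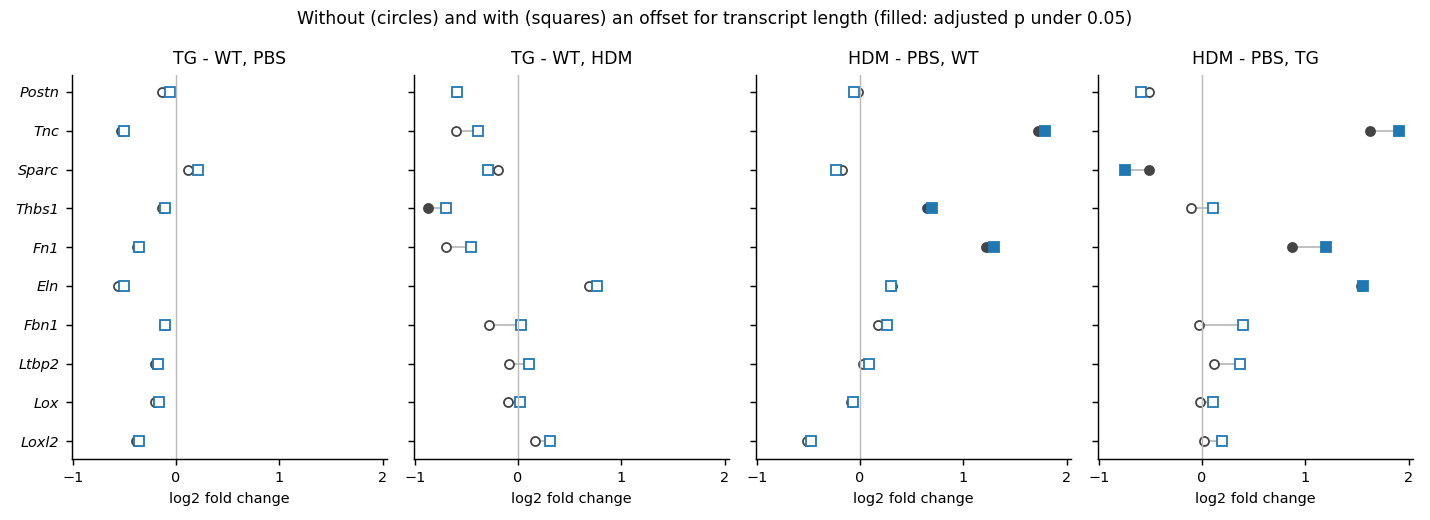
Log2 fold change of each member without (circles) and with (squares) an offset for transcript length, in the 4 comparisons, with filled symbols for an adjusted p under 0.05. Thbs1 loses its fill in the genotype comparison after HDM (-0.87 to -0.70), and Fbn1 moves most for HDM in transgenic lung (-0.03 to 0.40).

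Reads of a gene and of a gene that overlaps it on the other strand may not be separable here, since it is not given in the sources used here whether the library kit marked the strand. Of the members, all but Postn and Sparc overlap a gene on the opposite strand in the annotation of GRCm38. Over the whole transcript, and on either strand, 45.8% of the stretches of 50 bases of Loxl2 also lay in transcripts of another gene. This share was 20.1% for Fbn1, 10.3% for Ltbp2 and at most 2.76% for the other members. An overlapping gene on the opposite strand can add to these shares. Of the overlapping genes, Apol7d (at Fn1) and D030025P21Rik (at Ltbp2) were in the count table, with at most 1 and 49 counts in a library.

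Markers of the cells that make matrix varied with the groups. The summed level of 8 fibroblast markers was 1034 to 1085 CPM in PBS-treated wild type and 1243 to 1256 CPM in HDM-treated wild type libraries, and 994 to 1012 and 958 to 1075 CPM in the transgenic ones. That of 6 smooth muscle and myofibroblast markers was 235 to 241 CPM and 322 to 323 CPM in wild type with PBS and HDM, and 161 to 175 and 177 to 192 CPM in transgenic libraries. The fibroblast list holds genes that moved apart. Pdgfra, a receptor of fibroblasts, fell by 0.84 after HDM in wild type lung and fell by 0.94 in transgenic lung, whereas Col3a1, a fibrillar collagen gene, rose by 0.90 and 1.11. Col1a1, a gene of type I collagen, was lower in transgenic than in wild type lung after HDM by -1.09 (SE 0.20, adjusted p = 0.0178). It was the only one of the 8 that was called there, where 0.599% of all genes were called lower. Acta2, the actin of smooth muscle, was at -0.92 (adjusted p = 0.0669) in the same comparison and Myh11, its myosin heavy chain, at -0.75 (adjusted p = 0.238). Actg2 was called at -1.86 (adjusted p = 0.0372), the only one of the 6 smooth muscle and myofibroblast markers, beside the same 0.599%. Of their estimates 5 were negative and 1 was positive, at 0.16, with a median of -0.70. The 6 macrophage markers also moved apart. In wild type lung 2 rose after HDM (Cd68 by 1.69 and Mrc1 by 1.72), Lyz2 fell by 0.43, and Adgre1, Marco and Siglecf were not called, at 0.09, -2.32 and -0.51, with a median of -0.17 over the list. In transgenic lung 3 rose (Adgre1 by 2.03, Cd68 by 1.44 and Mrc1 by 1.02), and Marco, Siglecf and Lyz2 were not called, at -1.42, 0.47 and -0.16, with a median of 0.75. Of 5 endothelial markers, 4 fell after HDM in transgenic lung and 2 in wild type lung. Over all genes, 4.44% rose and 2.3% fell after HDM in wild type lung, and 8.43% rose and 5.35% fell in transgenic lung. Col2a1 and Col9a1 of cartilage and Calb2 of mesothelium had 0 counts in every library. Markers of cells from outside the lung also differed. The sum of 5 skeletal muscle markers was 41.2 to 44.8 CPM in PBS-treated wild type libraries, 152 to 158 CPM in HDM-treated wild type, 186 to 191 CPM in PBS-treated transgenic and 94.1 to 110 CPM in HDM-treated transgenic libraries. That of 4 thymocyte markers was 43.0 to 55.2 CPM in PBS-treated wild type and 11.5 to 17.6 CPM in the other 6 libraries. The part of any of these cells in the levels of the members was not tested.

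In 6 further lists with 71 genes of related function, 61 to 64 genes were tested in each comparison. In wild type lung 6 rose and 5 fell after HDM, of 62 tested, beside 4.44% and 2.3% of all genes. In transgenic lung 4 rose and 9 fell, of 62 tested, beside 8.43% and 5.35% of all genes. Without either PBS library of the transgenic mice 2 of them were called (Spp1 and Ltbp4), and without replicate 1 of the PBS-treated wild type libraries 5 were called for HDM in wild type lung. Called genes named from these lists are examples chosen by size. Of the genes of the 6 lists, edgeR and DESeq2 called 0 between genotypes after PBS, of 61 tested. By edgeR 9 of them had an unadjusted p under 0.05, beside 1489 of all 14926 genes. After HDM 1 was higher and 2 were lower in transgenic lung, of 63 tested, beside 1.84% and 0.599% of all genes. These 3 calls, of Sdc4, Mfap4 and Tgm2, were lost without either HDM-treated wild type library, at adjusted p between 0.318 and 0.459. Over all tested genes of the 6 lists, the median log2 fold change for HDM was -0.04 in wild type and -0.24 in transgenic lung. Of the matricellular genes outside the members, Spp1, which encodes osteopontin, rose most. It was at 69.6 and 59.0 CPM in PBS-treated wild type libraries, at 438 and 442 CPM after HDM, at 56.7 and 42.3 CPM in PBS-treated transgenic and at 437 and 371 CPM in HDM-treated transgenic libraries. Its log2 fold change for HDM was 2.77 in wild type (SE 0.15, adjusted p = 4.56e-08) and 3.06 in transgenic lung (SE 0.23, adjusted p = 8.98e-06). Tgfbi, a relative of periostin, rose by 1.33 in wild type lung and by 1.97 in transgenic lung. The tenascin genes Tnxb and Tnn went the other way in transgenic lung, where Tnxb fell by 1.75 (adjusted p = 0.00295) and Tnn fell by 3.44 (adjusted p = 0.0176), although Tnn was at 14.4 CPM or less in every library.

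Among elastic fibre genes, Ltbp4, a latent TGF-beta binding protein that elastic fibre assembly needs, fell by 1.35 after HDM in wild type (SE 0.15, adjusted p = 6.32e-05) and fell by 1.69 in transgenic lung (SE 0.20, adjusted p = 0.000280). Its level was 225 to 261 CPM in the 4 PBS libraries and 71.0 to 94.6 CPM in the 4 HDM libraries. Efemp1, a fibulin gene, fell by 0.67 in wild type lung and fell by 0.76 in transgenic lung. The wild type call was lost without either PBS library or without replicate 2 of the HDM libraries, at adjusted p between 0.131 and 0.242. Under another setting with all libraries the wild type call of Efemp1 was lost too, at adjusted p up to 0.0699. Mfap4, a microfibril protein gene, was at 458 and 499 CPM in PBS-treated wild type libraries and at 893 and 897 CPM after HDM, a rise of 0.90 (SE 0.11, adjusted p = 0.000134). In transgenic lung it was at 436 and 516 CPM with PBS and at 397 and 543 CPM with HDM, groups that overlapped. After HDM it was lower in transgenic than in wild type lung by -0.89 (SE 0.18, adjusted p = 0.0251). Of the enzymes, Plod2, a lysyl hydroxylase of collagen, fell by 1.14 after HDM in wild type lung and fell by 0.96 in transgenic lung. Tgm2, a transglutaminase, was lower in transgenic than in wild type lung after HDM by -0.84 (SE 0.18, adjusted p = 0.0346), a call that was lost with the offset for transcript length (adjusted p = 0.0539) and with that for coding length (adjusted p = 0.0612).

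Of 12 integrins and other receptors of these proteins, 1 rose and 1 fell after HDM in wild type lung, beside 4.44% and 2.3% of all genes. In transgenic lung 1 rose and 3 fell, beside 8.43% and 5.35% of all genes. Between genotypes after HDM, 1 was higher in transgenic than in wild type lung, beside 1.84% of all genes. Itga4, an integrin subunit of leukocytes, rose after HDM by 0.69 in wild type and by 1.14 in transgenic lung. Without 1 library these changes lay between 0.65 and 0.72 and between 0.98 and 1.33, and neither call held in all of these fits. Itga8, an integrin subunit of fibroblasts and smooth muscle, fell by 1.10 in wild type lung, from 253 and 310 CPM with PBS to 138 and 126 CPM with HDM, and fell by 1.21 in transgenic lung, from 354 and 304 CPM to 130 and 150 CPM. Sdc4, a heparan sulfate proteoglycan that acts beside integrins in binding fibronectin, was the gene called higher in transgenic lung after HDM, at 1.24 (SE 0.28, adjusted p = 0.0402), with 156 and 97.6 CPM against 49.2 and 62.1 CPM in wild type. This call was also lost with either length offset, at adjusted p of 0.108 and 0.148, with RLE size factors (0.0529) and without replicate 1 of the HDM-treated transgenic libraries (0.0890). Of 8 TGF-beta ligands, receptors and targets, 1 rose after HDM in wild type lung, beside 4.44% of all genes. In transgenic lung 1 rose and 1 fell, beside 8.43% and 5.35% of all genes. There Tgfbr3 fell by 1.27 and Tgfbr1 rose by 0.74, and Tgfbr1 was not called with RLE size factors (adjusted p = 0.0542) or the offset for coding length (0.0738). Tgfbr1 was also higher with HDM in wild type lung, at 120 and 130 CPM against 83.9 and 78.8 CPM with PBS. Tgfbr3 was lower there, at 85.9 and 58.7 CPM against 109 and 115 CPM.

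**Figure D4:**
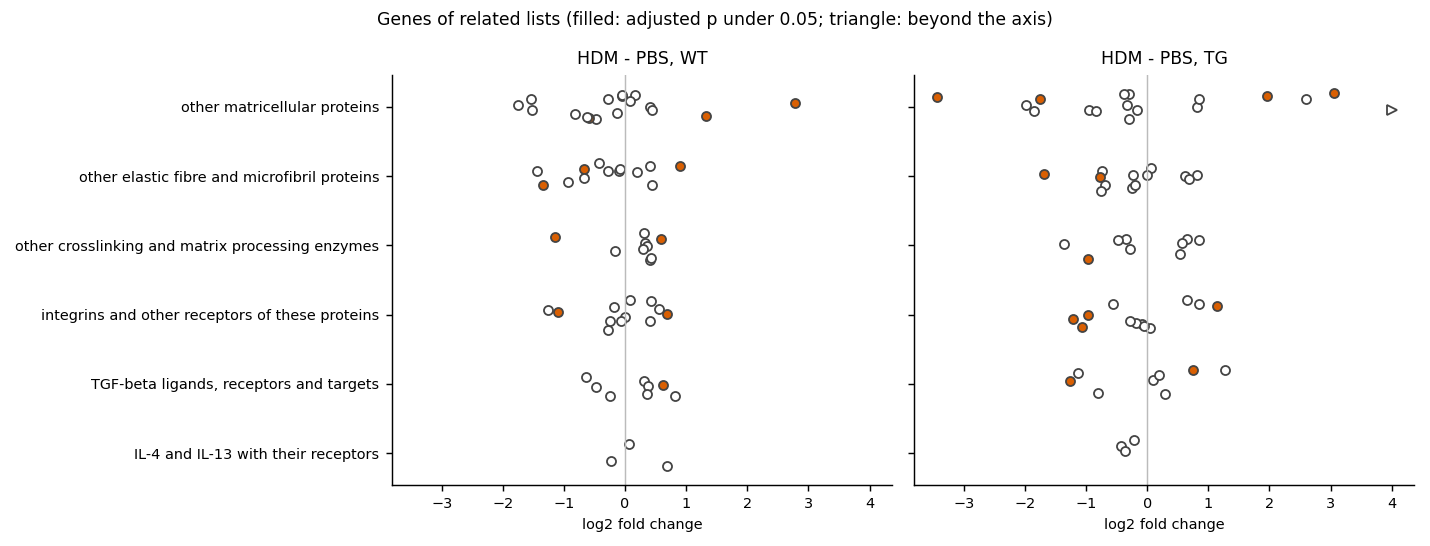
Log2 fold change for HDM minus PBS of the genes in the 6 related lists, in wild type (left) and transgenic lung (right), with filled points for an adjusted p under 0.05 and a triangle for a value beyond the axis. Spp1 (2.77 and 3.06) lies farthest to the right among the filled points of both panels, and Tnn (-3.44) farthest to the left in transgenic lung.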

How the data were processed

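Lung RNA of 4 mice was pooled per group and sequenced as 2 libraries. The authors amplified this RNA before library construction, ran 50 sequencing cycles of single reads, and aligned with TopHat to mm10 (GRCm38). Reads in coding regions were summed per gene with ShortRead and custom R programs, and the submitters' processing notes also name bcl2fastq, CASAVA 1.8 and DESeq. The deposited values are raw read counts for 23469 Entrez genes, without normalization. The aligner's version is not given in the sources used here. Groups and replicates came from the library titles. All 8 columns were mapped to a library by name, and 0 other columns of per-library values were left.

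RefSeq of GRCm38.p6 named 23372 genes, and GENCODE gave a transcript length for 21145. Each comparison was tested on its own 4 libraries with the quasi-likelihood test of edgeR 4.0.16 (R 4.3.3), with TMM normalization and filterByExpr at a count minimum of 10. The interaction used all 8 libraries. Benjamini-Hochberg adjustment covered every gene in a fit, and the threshold was 0.05. SE is the log2 fold change divided by the root of F. CPM and intervals cover counting and library spread only, and amplified reads are not independent molecules. Both libraries of each group differed beyond counting noise (mean chi-square per gene 13.1 to 28.1) and were kept as 2. Scripts were tested on simulated counts.

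The members and all gene lists were chosen with earlier results of these data known. All members were named, and from the 6 related lists at most 4 called genes in each direction per comparison, the largest changes first. Ddah1, Xist and Ddx3y, and the first markers of the lists, were also named, and Col3a1, Actg2, Marco, Mrc1, Siglecf, Lyz2, Col9a1 and Calb2 were picked from the marker lists after their values were seen. Alternatives were RLE size factors, DESeq2 1.42.0, no filter, the replicate number as a block, a loess offset for transcript length (span 0.5) alone and with the block, library sizes that leave out the genes of ribosomal RNA and haemoglobin, 1 fit of all libraries and leaving out each library. An offset for coding length was added after seeing the data. The groups of libraries sequenced together are not given for each library in the sources used here, so that no sequencing batch was examined.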

Additional observations from a re-analysis of the deposited data

Results flagged for a closer look

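Of the genes of the related lists, 2 had a genotype difference that changed between PBS and HDM libraries. This was by the test of the interaction itself, with edgeR on all 8 libraries. HDM and sex cannot be told apart in this test. Mfap4 had a log2 interaction of -0.91 (SE 0.22, adjusted p = 0.0419) and Tgm2 of -0.89 (SE 0.22, adjusted p = 0.0494). Both calls were lost without any 1 of 7 of the 8 libraries, at adjusted p from 0.0567 to 0.223 for Mfap4 and from 0.0702 to 0.231 for Tgm2. They held without replicate 2 of the HDM-treated transgenic libraries, at 0.00230 and 0.0146. In both genes the HDM-treated wild type libraries were the highest of the 8, at 893 and 897 CPM for Mfap4 and at 450 and 399 CPM for Tgm2. The HDM-treated transgenic libraries were at 397 and 543 CPM for Mfap4 and at 214 and 248 CPM for Tgm2.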

How the results depend on the processing

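In the genotype comparison after HDM, 1 member passed the threshold in the text. With RLE size factors, DESeq2, no filter, the replicate block or 1 fit of all 8 libraries, 2 passed (Thbs1 and Fn1). With an offset for transcript or coding length alone 0 passed, and with the transcript offset and the block 1 passed (Thbs1). For HDM in transgenic lung 5 passed with that offset and the block, Postn among them, against 4 in the text. In the interaction 2 passed with DESeq2 and 1 without the filter. Leaving out 1 library gave 0 calls among members for genotype after PBS, 0 to 4 after HDM, 2 to 3 for HDM in wild type, 0 to 5 for HDM in transgenic lung and 0 to 1 in the interaction. With 1 library left in a group, its spread was taken to be that of the other group or groups. Far fewer of all genes were called for HDM in transgenic lung without either PBS-treated transgenic library. The same held for genotype after HDM without either HDM-treated wild type library. A call lost in these fits is therefore not particular to the gene. The counts of 0 for HDM in transgenic lung came without either PBS library, and those for genotype after HDM without either wild type library. Values that changed sign were small in the text. With the offset for transcript length, that offset with the block, and the offset for coding length, genotype after HDM was 0.030, 0.023 and 0.041 for Fbn1 and 0.10, 0.039 and 0.15 for Ltbp2, and with the first 2 of them 0.020 and 0.0062 for Lox. HDM in transgenic lung was 0.10, 0.11 and 0.067 for Thbs1 and 0.40, 0.39 and 0.32 for Fbn1, and 0.11 and 0.094 for Lox. The interaction was 0.11, 0.11 and 0.19 for Tnc, 0.13, 0.13 and 0.16 for Fbn1, and -0.025 for Lox with coding length. Loxl2 for HDM in transgenic lung was -0.0193 with RLE, -0.0192 with DESeq2 and -0.0074 in 1 fit. The median of the members was 0.28 for HDM in transgenic lung and 0.12 in the interaction with the offset for transcript length, against -0.0020 and -0.17. Of the related genes, 3 were called for genotype after HDM, with 1 to 6 under these settings, 13 for HDM in transgenic lung, with 12 to 19, 11 for HDM in wild type, with 8 to 15, and 2 in the interaction, with 2 to 7. For genotype after PBS the count was 0, and 1 without the filter. Without 1 library these counts were 0 to 9, 2 to 19, 5 to 17 and 0 to 5, and 0 to 3 for genotype after PBS. The causes were not tested.

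Without 1 library, signs changed for Ltbp2 in all comparisons (-0.39 to 0.021 for genotype after PBS, -0.64 to 0.30 after HDM, -0.16 to 0.25 for HDM in wild type, -0.45 to 0.51 in transgenic lung, -0.50 to 0.47 in the interaction). They changed for Lox (-0.31 to 0.086 for genotype after HDM, -0.23 to 0.15 for HDM in transgenic lung, -0.14 to 0.22 in the interaction), for Postn (-0.15 to 0.10 for HDM in wild type) and for Tnc (-0.50 to 0.42 in the interaction). For HDM in transgenic lung they also changed for Thbs1 (-0.22 to 0.017), Fbn1 (-0.23 to 0.13) and Loxl2 (-0.16 to 0.21).

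Replicate numbers were checked for pairing. Differences between replicates 1 and 2 correlated between groups at -0.02 to 0.03, so that the libraries share only a number. With the replicate block, 0 members were called for genotype after PBS, 2 after HDM, 3 for HDM in wild type, 4 in transgenic lung and 0 in the interaction. Pools hold no spread between mice, and the smallest library, of 5694928 counts, limits the HDM-treated transgenic group most.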

Other observations

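Some genes of the related lists, singled out after their values were seen, had counts in few libraries. Il13, the cytokine of type 2 responses, had 28 and 9 counts in the HDM-treated wild type libraries and 0 to 2 counts in each of the other 6. The filter on low counts left it out of every comparison. Thbs4, a relative of Thbs1, had 2 and 127 counts in PBS-treated wild type libraries, 21 and 58 after HDM, 0 in both PBS-treated transgenic libraries, and 12 and 16 after HDM. The libraries of Thbs4 in PBS-treated wild type lung thus differed more from each other than the groups did.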
